A study of Mus musculus with 5 samples.

Results

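Nanog, Sall4, Lin28a, Utf1 and Fbxo15 are 5 genes of the core pluripotency set of mouse embryonic stem (ES) cells. They were chosen by symbol in the platform's annotation and are 5 of the 16032 genes named on the array, each read by 1 probe (Lin28a is listed there as Lin28). Their RNA was followed through ES cells, sphere cells made by activating the kinase Akt, and ES-like cells recovered from such spheres. The intensities of Nanog and Sall4 stayed within 1.44-fold and 1.36-fold over all 5 arrays. On the log2 scale, 27.2% and 21.2% of genes tested had a range no wider. The Sall4 probe was dim, so its small range does not show a steady level. Fbxo15 was lower in both sphere lines than in any ES-type culture, and Lin28a and Utf1 were lower in the spheres of line 21 and not in those of line 42. No member passed the test of spheres against ES-type cultures over all genes.

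All cells were male derivatives of the feeder-free ES line E14tg2a, of mouse strain 129, and carried Akt-Mer, a myristoylated Akt fused to a modified estrogen receptor that 4-hydroxytamoxifen (4OHT) switches on. The 5 arrays, 1 sample each, were line 21 ES cells without 4OHT (untreated ES cells), line 21 ES cells with 1 µM 4OHT (treated ES cells), Akt-spheres of line 21, Akt-spheres of line 42, and reverted ES-like cells of line 21. Akt-spheres are colonies that the labels call primordial germ cell (PGC)-like. They were made with the culture protocol for blood differentiation over OP9 stroma, in medium with 1 µM 4OHT begun 3 days earlier, and the stroma was then left behind on a dish to which it attaches. The reverted cells came from line 21 spheres by transient 4OHT treatment on mouse embryonic fibroblasts (MEFs), and the labels do not say whether 4OHT was present at harvest. Each line stands for 1 culture, line 42 ES cells were not analysed here, and nothing in the labels says that any culture was repeated. The series set out to ask whether Akt moves ES cells toward a PGC-like state that can return to an ES-like one.

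In ES cells a small set of transcription factors binds at its own and at shared enhancers and holds the undifferentiated state. Nanog is a homeodomain factor of that circuit that stabilises self-renewal and is also expressed in early germ cells. Sall4 is a zinc-finger factor that binds with Nanog. Lin28a is an RNA-binding protein that blocks the maturation of let-7 microRNAs. Utf1 is a chromatin-bound transcription cofactor of undifferentiated cells. Fbxo15 encodes an F-box protein and has long served as a reporter gene of the ES cell state, although ES cells do without it.

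Nanog, Utf1 and Fbxo15 are textbook targets of paired octamer and Sox sites, so the stretch before each start site was read for such letters. Among the RefSeq starts for GRCm38.p6 used here, 3 of the 5 members had an entry. The 250 bases before the most upstream listed start are printed for these, on the gene's strand. Sall4 and Fbxo15 had no entry among the starts used, so no window was read for them. Their absence here does not show that RefSeq lists no start for them. Capitals mark the octamer core TTTGCAT and the Sox core ACAAT on either strand. The windows are chr6:122707239-122707488 (plus strand) for Nanog, chr4:134018817-134019066 (minus strand) for Lin28a and chr7:139943606-139943855 (plus strand) for Utf1.
Nanog: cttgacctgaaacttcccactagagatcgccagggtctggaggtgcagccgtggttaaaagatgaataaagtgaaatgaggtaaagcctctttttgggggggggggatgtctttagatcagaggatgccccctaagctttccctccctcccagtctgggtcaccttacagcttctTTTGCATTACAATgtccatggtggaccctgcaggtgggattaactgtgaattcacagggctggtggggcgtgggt
Lin28a: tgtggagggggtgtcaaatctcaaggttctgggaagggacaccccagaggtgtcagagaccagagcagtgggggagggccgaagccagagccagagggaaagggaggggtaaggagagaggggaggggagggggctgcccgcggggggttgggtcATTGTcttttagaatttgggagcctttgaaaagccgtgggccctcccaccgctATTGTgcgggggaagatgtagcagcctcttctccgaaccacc
Utf1: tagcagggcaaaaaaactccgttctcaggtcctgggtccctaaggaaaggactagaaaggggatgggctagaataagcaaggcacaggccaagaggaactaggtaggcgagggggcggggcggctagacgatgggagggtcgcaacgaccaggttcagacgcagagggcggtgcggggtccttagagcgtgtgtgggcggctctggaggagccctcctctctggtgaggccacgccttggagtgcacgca
The Nanog window held both cores 1 base apart, as TTTGCATTACAAT, from 75 to 63 bases before the start (chr6:122707414-122707426). That composite, TTTGCATNACAAT, occurred on either strand in 8 of 32851 windows of this length (0.0244%), belonging to 6 of 27025 genes, and both listed Nanog starts were among them. The Lin28a window held the Sox core at 2 places on the opposite strand and no octamer core, and the Utf1 window held neither. The octamer core alone was found in 4.12% and the Sox core in 27.7% of windows. A match is a description of letters, and a window without one says nothing about sites elsewhere.

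Values are the deposited probe intensities, on a linear scale with a median of 50 on each array. Differences were taken on log2(intensity + 1) after centring each array on its median, so they are a little compressed for dim probes. Over the arrays, 1392 to 2084 of 22871 probes held no value. All 5 members had a value on every array and passed the filter on dim probes.

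The Nanog probe read 5479.7 in untreated ES cells, 3839 in treated ES cells, 4538 in reverted cells, and 5523 and 4003 in the spheres of lines 21 and 42. The line 21 spheres were as bright as the brightest ES culture, the line 42 spheres were close to the dimmest, and the groups overlapped. On every array the probe lay between the 96.1st and the 97.7th percentile of listed probes. The sphere mean was 4763 ± 1075 (SD, n = 2) and the ES-type mean 4619 ± 823 (SD, n = 3). The log2 difference, spheres minus the 3 ES-type arrays, was 0.045 (SE 0.30, limma adjusted p = 0.958). Its 95% interval ran from -0.70 to 0.79, so these arrays do not show the level to be the same.

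The Sall4 probe read 47.1 in untreated ES cells, 34.5 in treated ES cells, 44.9 in reverted cells, and 41.2 and 35.0 in the spheres of lines 21 and 42. It lay below the array median on all 5 arrays, at the 43.2nd to 49.0th percentile of listed probes, also in ES cells, where the gene is known to be expressed. The groups overlapped, and the log2 difference was -0.13 (SE 0.27, limma adjusted p = 0.838), with a 95% interval from -0.79 to 0.53. With a stricter filter on dim probes (60th percentile) this probe was not tested. Small differences on so dim a probe do not show an unchanged level.

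The Fbxo15 probe read 6165 and 6086 in untreated and treated ES cells, 3026 in reverted cells, and 738 and 2224 in the spheres of lines 21 and 42. Both sphere arrays lay below every ES-type array, and the reverted cells lay between the ES cells and the spheres. Over all genes tested, 18.5% had both sphere arrays below the 3 ES-type arrays, and Fbxo15 was the 1 member that did. Both sphere arrays lay above for 19.1% of genes and 0 members, and both lay at least 2-fold below each ES-type array for 2.64% of genes and 0 members. The mean Fbxo15 level was 3.77-fold lower in spheres (log2 -1.91, SE 0.56, 95% interval -3.28 to -0.55). The limma p was 0.0141 before and 0.149 after adjustment over 10589 genes, so the difference did not pass. Its size exceeded that of 96.0% of genes tested, and the gap between the sphere lines exceeded that of 94.2%.

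The Lin28a probe read 1024 in untreated ES cells, 802 in treated ES cells, 744 in reverted cells, 352 in line 21 spheres and 868 in line 42 spheres. Only the line 21 spheres lay outside the ES-type range. The Utf1 probe read 7534 in untreated ES cells, 5125 in treated ES cells, 5740.4 in reverted cells, 2821 in line 21 spheres and 7842 in line 42 spheres. Here too the line 21 spheres were the dimmest array. Those of line 42 were the brightest by intensity, but lay 0.043 below untreated ES cells on the centred log2 scale. Genes below the ES-type range in line 21 spheres and not in line 42 spheres made up 14.9% of those tested, and 2 of the 5 members were of this kind. The reverse, line 42 alone below the range, held for 12.3% of genes and 0 members. Spheres against ES-type arrays gave a log2 difference of -0.61 for Lin28a (SE 0.42, 95% interval -1.65 to 0.42, limma adjusted p = 0.499). For Utf1 it was -0.36 (SE 0.47, 95% interval -1.51 to 0.79, limma adjusted p = 0.741). Without the line 21 sphere array the differences were 0.010 and 0.35, so both negative means rest on that array. Without the line 42 sphere array they were -1.24 and -1.07 (limma adjusted p = 0.185 and 0.249). With 1 sphere array left, the spread in such a fit comes from the ES-type arrays alone and the lone array is assumed to vary like them, here and wherever a sphere line is left out.

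**Figure D1:**
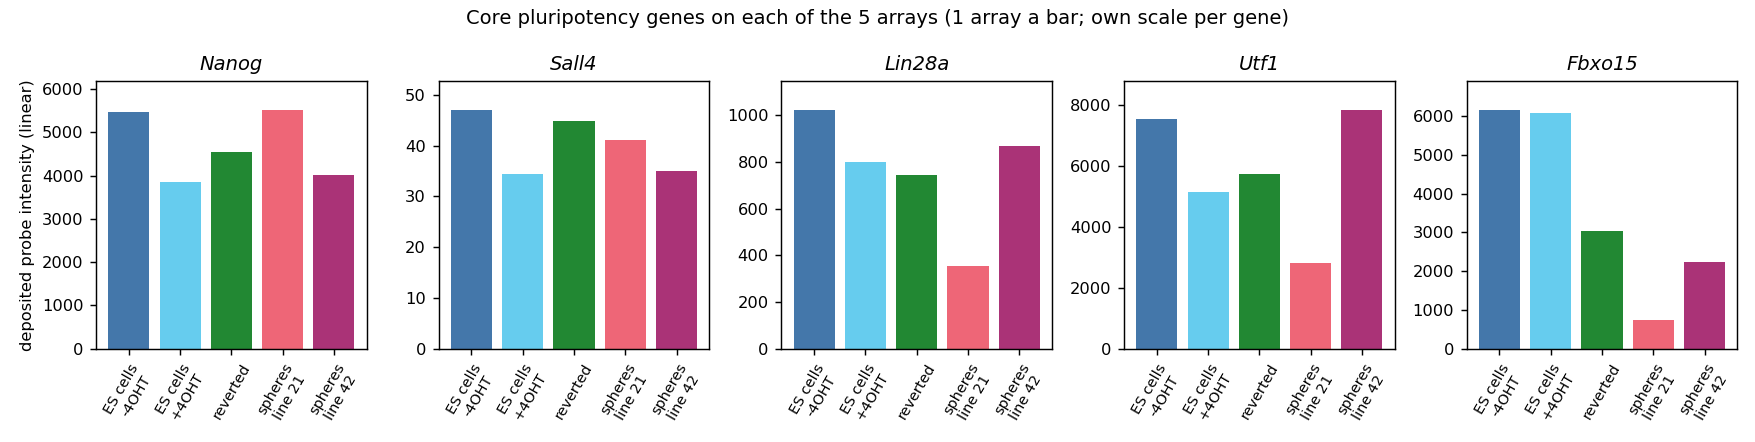
Each bar is the deposited linear probe intensity on 1 array, with a scale of its own for each gene, so heights are not compared between genes. Fbxo15 reads 738 and 2224 in spheres against 3026 to 6165 elsewhere, Lin28a and Utf1 are lowest in line 21 spheres, and Nanog and Sall4 vary by 1.44-fold and 1.36-fold.

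Of the 5 members, limma called 0, against 2.44% of all 10589 genes (102 or 0.963% higher and 156 or 1.47% lower in spheres). At an unadjusted p under 0.05 there was 1 member, Fbxo15, and 18.9% of all genes. The median difference over the members was -0.36, and 0.0013 over all genes. The ES-type spread in this test includes the differences between the 3 ES-type conditions, and nothing separates sphere line from replicate. Without untreated ES cells limma called 0 genes, without treated ES cells 11 higher and 21 lower, without line 21 spheres 50 and 98, and without line 42 spheres 36 and 62.

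**Figure D2:**
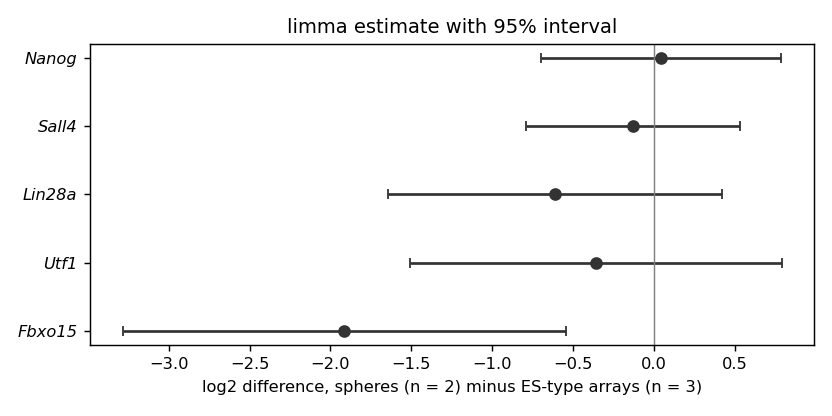
Points are limma log2 differences of the 2 sphere arrays minus the 3 ES-type arrays and bars are their 95% intervals. The intervals of Nanog, Sall4, Lin28a and Utf1 cross 0, and that of Fbxo15 runs from -3.28 to -0.55 before any adjustment for 10589 genes.

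Whether Nanog and another member moved differently was tested within arrays, where the scaling of an array cancels. The log2 value of Nanog minus that of Fbxo15 was -0.17, -0.66 and 0.58 in untreated, treated and reverted cells, and 2.90 and 0.85 in the spheres of lines 21 and 42. Both sphere arrays lay above the ES-type arrays, by 1.96 on average. The exact two-sided permutation test gave p = 0.1 (adjusted p = 0.4 over 4 pairs), and 0.1 is the smallest p that 2 against 3 arrays allow. For Lin28a, Utf1 and Sall4 the corresponding shifts were 0.66, 0.40 and 0.18 (exact permutation p = 0.5, 0.7 and 0.3, adjusted p = 0.667, 0.7 and 0.6). Without the line 21 spheres the shifts for Lin28a and Utf1 turned to -0.22 and -0.57.

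The line 21 cultures were then followed step by step, with 1 array at each step and no replicate check. Adding 4OHT to ES cells went with a lower value of all 5 members, with log2 differences of -0.69 for Utf1, -0.65 for Nanog, -0.57 for Sall4, -0.49 for Lin28a and -0.15 for Fbxo15. None of these reached 2-fold, as 2.4% of genes did downward and 2.56% upward. Of all genes 52.7% were lower at this step. On the centred scale the untreated ES cells were the highest array for all 5 members. All 5 were therefore also lower in line 21 spheres, line 42 spheres and reverted cells than in untreated ES cells (50.9%, 48.5% and 49.9% of all genes). The lower values were thus not particular to treated ES cells. The share of genes with a lower difference than the member's was 6.25% for Utf1, 7.28% for Nanog, 9.19% for Sall4, 12.6% for Lin28a and 36.7% for Fbxo15. The centring shifts of the untreated and treated arrays were 0.077 and -0.059, and without centring the differences were smaller, -0.51 for Nanog and -0.018 for Fbxo15, with no change of sign.

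From treated ES cells to line 21 spheres, Fbxo15 was 7.75-fold lower (log2 -2.95) and Lin28a 2.14-fold lower (log2 -1.10), where 13.8% of genes were at least 2-fold lower. Utf1 differed by -0.77, Nanog by 0.61 and Sall4 by 0.34, none of them 2-fold (12.7% of genes were at least 2-fold higher). Set against untreated ES cells, line 21 spheres were 8.63-fold lower for Fbxo15, 3.00-fold for Lin28a and 2.76-fold for Utf1, with 12.5% of genes at least 2-fold lower. No member was 2-fold higher, as 10.1% of genes were, and Nanog differed by -0.037.

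The reverted cells were 3.95-fold higher than line 21 spheres for Fbxo15, 2.04-fold for Lin28a and 1.96-fold for Utf1. Upward 2-fold differences made up 9.41% of genes at this step. Nanog differed by -0.33 and Sall4 by 0.069, and 0 members were 2-fold lower, as 7.58% of genes were. On the log2 scale the reverted cells had regained 63.8% of the Fbxo15 difference between untreated ES cells and spheres, 64.7% for Lin28a and 66.5% for Utf1. Among the 10589 genes of the limma fit, 1299 were at least 2-fold lower in line 21 spheres than in untreated ES cells. Their median by the same ratio was 64.1% (quartiles 30.6% and 94.6%), so the members lay at the middle of that range. Which ES culture is the matching reference depends on the 4OHT state of the reverted cells, which is not stated. Measured from treated ES cells the shares were 67.1% for Fbxo15, 93.6% for Lin28a and 126% for Utf1. Against untreated ES cells, the reverted cells remained 2.18-fold lower for Fbxo15, beyond 2-fold as 6.34% of genes were, and the other 4 members differed by -0.17 to -0.56. None was 2-fold higher, as 5.18% of genes were. Under quantile normalization the Fbxo15 difference was -0.92, under 2-fold.

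**Figure D3:**
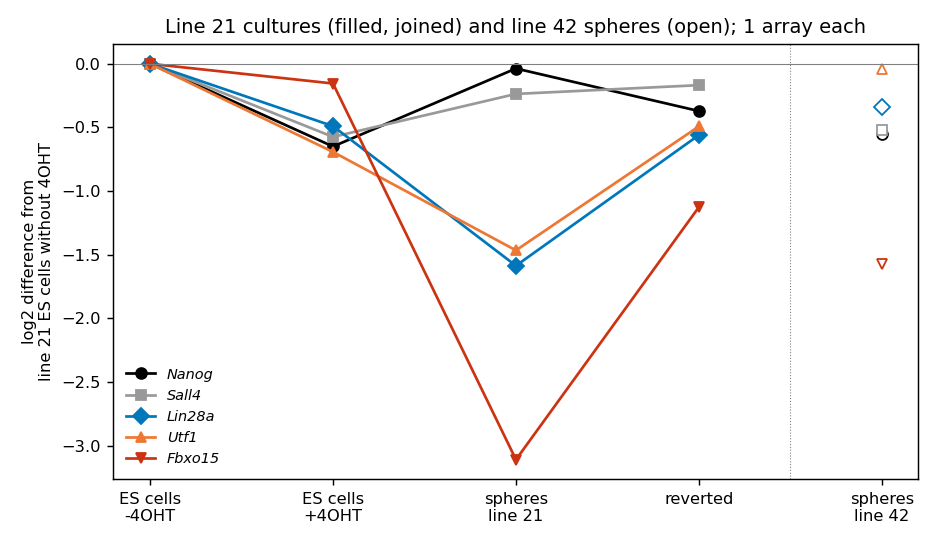
The vertical axis is the log2 difference from untreated line 21 ES cells, and each point is 1 array, with line 21 cultures joined and line 42 spheres shown open. Fbxo15, Lin28a and Utf1 dip in line 21 spheres and come part of the way back in reverted cells, and in line 42 spheres only Fbxo15 lies more than 1 log2 unit below 0.

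The sphere lines differed for the same 3 genes. Line 42 spheres were 2.90-fold higher than line 21 spheres for Fbxo15, 2.68-fold for Utf1 and 2.37-fold for Lin28a, against 7.87% of genes at least 2-fold higher. Nanog was 1.43-fold and Sall4 1.22-fold lower in line 42, under the 2-fold that 7.81% of genes passed downward. Against treated line 21 ES cells, which both comparisons share as control, line 42 spheres had a difference of -1.42 for Fbxo15, where 11.2% of genes were at least 2-fold lower. Utf1 stood at 0.65, Lin28a at 0.15, Nanog at 0.095 and Sall4 at 0.054, and 9.73% of genes were at least 2-fold higher. Against untreated ES cells, Fbxo15 was again the 1 member past 2-fold in line 42 spheres (2.97-fold lower), where 10.5% of genes were 2-fold lower and 8.37% higher. With 1 array per line, line, culture and array cannot be told apart.

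Lin28a and Utf1 had like profiles, and Fbxo15 lay farther from each of them than they did from each other. The distance between profiles, the root mean square difference of mean-centred log2 values over the 5 arrays, was 0.16 for Lin28a and Utf1. Of the 10588 other genes, 14 were at least as near to Lin28a, Utf1 included, and 8 at least as near to Utf1, Lin28a included. Nanog and Sall4 were 0.13 apart, but both are nearly flat, and 50 genes were at least as near to Nanog. Fbxo15 lay 0.71 from Lin28a and 0.85 from Utf1, and 495 and 1108 genes were at least as near to Fbxo15 as these. The nearest genes outside the set were Rpl14 (0.068), a ribosomal protein gene, Serpini1 (0.077) and Kcnk3 (0.12) for Lin28a, Gapdh (0.080), Nap1l1 (0.13) and Ptprf (0.14) for Utf1, and Fblim1 (0.17), Comtd1 (0.23) and Ddc (0.27) for Fbxo15. The Gapdh probe, of a glycolytic enzyme often used as a control, read 425 and 299.96 in untreated and treated ES cells, 289 in reverted cells, 164 in line 21 spheres and 428 in line 42 spheres.

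In the order of levels, the arrays next to each other were closer than the residual SD of the limma fit for every Sall4 step. For Nanog 1 step of 4 exceeded it, from line 21 spheres to reverted cells (0.334 against an SD of 0.332, log2). For Lin28a and Utf1 the 1 step beyond the SD was that down to line 21 spheres. For Fbxo15 it was exceeded from treated ES cells to reverted cells (0.97 against 0.61) and from line 42 to line 21 spheres (1.54). The SD was fitted on these same arrays. It holds the gap between the sphere lines and the gaps among the ES-type conditions, so it does not measure noise between repeats. The steps are a description and not a test.

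Other ES cell genes ran from much larger differences than those of the members to small ones. Of 23 other ES cell genes tested, limma called 9 lower and 0 higher in spheres, with a median log2 difference of -2.02. They were Nr0b1 (log2 -5.23), an orphan nuclear receptor, Tbx3 (-4.93), Eras (-4.78), a Ras protein of ES cells, Dppa5a (-4.34) and the growth factor gene Fgf4 (-4.17). The others were Klf4 (-3.51), Klf5 (-3.27), the Nodal co-receptor gene Tdgf1 (-2.02) and Rest (-1.52). In spheres Tbx3, Fgf4 and Rest read under the filter level (28.6 to 29.3 over the arrays). They passed the filter only through ES-type arrays, so the sizes of their differences are uncertain. Among the genes not called, Dppa4 (-5.68, limma adjusted p = 0.140) and Zfp42 (-5.51, limma adjusted p = 0.0503) had the largest differences. Tfcp2l1 (-0.24) and Lefty1 (0.26) had the smallest. The Tfcp2l1 probe was dim, at 22.5 to 33.6, and passed the filter only through reverted cells. Its small difference does not show an unchanged level. Zfp42, also known as Rex1, had an adjusted p of 0.0441 to 0.0497 in limma with other scalings, filters, pseudocount or probe choice. Chosen after their values were seen, Dppa3 (1.54, limma adjusted p = 0.684) and Prdm14 (0.65, limma adjusted p = 0.218) were positive like Lefty1, and 18 of the 23 were negative in both lines. Dppa3, a germ cell and early embryo gene, read 435, 171 and 1626 in untreated, treated and reverted cells, 223 in line 21 spheres and 9198 in line 42 spheres. With untreated ES cells left out limma called 0 of them, with treated ES cells left out 4, and with reverted cells left out 6. The median of the 23 stayed between -1.72 and -2.44 whichever array was left out.

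**Figure D4:**
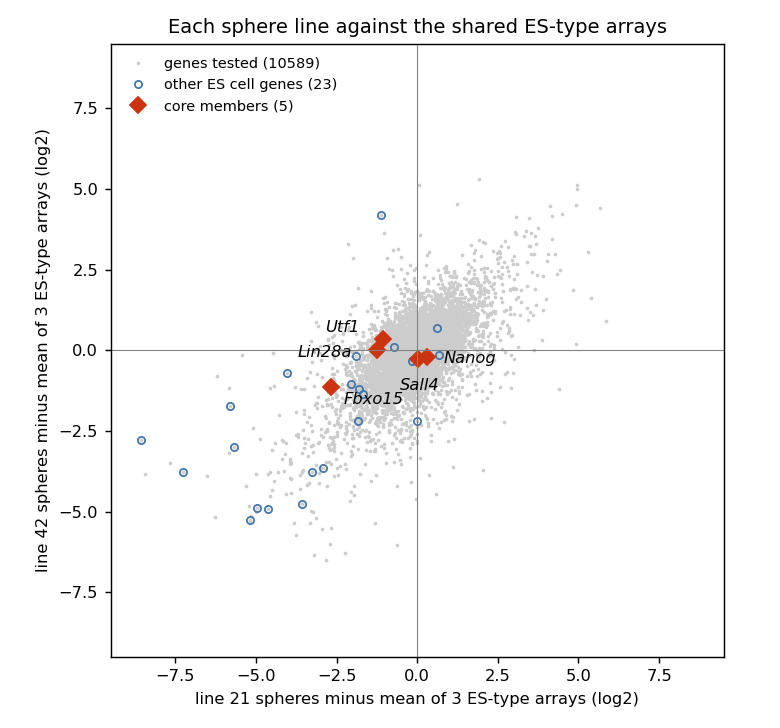
Each point is 1 gene, placed by its log2 difference from the mean of the 3 ES-type arrays in line 21 spheres (horizontal) and line 42 spheres (vertical), both of which share those arrays. Nanog and Sall4 sit near the origin and Fbxo15 lies at -2.68 and -1.15, while 14 of 23 other ES cell genes lie at or below -1 in both lines, as do 5.21% of all genes tested.

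Proteins that bind Nanog were a mixed list. Of 22 tested, Sall4 among them, limma called 3 lower (Nr0b1, Klf4 and Rest) and 0 higher, and the median was -0.28. All 3 are also among the other ES cell genes above. Rest read 10.5 and 13.9 in spheres against 33.4 to 38.8 on ES-type arrays. Rest and Esrrb lay under the filter level in spheres and passed the filter only through ES-type arrays. Among the partners not called, Esrrb and Arid3b had the largest differences. Esrrb, an orphan nuclear receptor, read 7.96 and 13.1 in spheres against 23.4 to 40.6 on ES-type arrays (log2 -1.51, limma adjusted p = 0.0709). Arid3b, a DNA-binding factor, read 237 and 183 in spheres against 81.1 to 85.5 (log2 1.31, limma adjusted p = 0.0584). The smallest differences were those of Zfp609 (0.037) and Zmym2 (-0.036). Leaving out 1 array gave 0 to 2 calls in this list.

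Of the genes tied to composite octamer-Sox sites 9 were tested, of which Nanog, Utf1 and Fbxo15 are members. limma called 2 lower, Fgf4 and Tdgf1, and the median was -2.02. Both genes are also among the other ES cell genes called above. The median of each list is the value of Tdgf1, so the lists do not give separate results. Fgf4 read 278, 362 and 124 in untreated, treated and reverted cells, and 18.3 and 7.66 in spheres. Within this list the differences ran from -5.68 for Dppa4 (limma adjusted p = 0.140) to 0.26 for Lefty1 (0.844), and Nanog stood at 0.045. Leaving out untreated or treated ES cells gave 0 calls here, and leaving out reverted cells 1.

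Around Lin28a, 15 of the 22 genes listed for let-7 processing and let-7 targets were tested and limma called 0, with 4 at an unadjusted p under 0.05 and a median of 0.039. The largest difference was that of Ccnd2, a cyclin gene and let-7 target, which read 4300.3 and 945 in spheres against 57.9 to 214 on ES-type arrays (log2 4.18, limma adjusted p = 0.0602). Arid3b, described above, is also of this list. Igf2bp3, another target, read 689 in line 21 spheres, 21.0 in line 42 spheres and 461 to 482 elsewhere (log2 -1.94, limma adjusted p = 0.502). Without line 21 spheres its log2 difference was -4.45, of uncertain size because line 42 spheres read under the filter level. The smallest differences were those of E2f2 (0.039) and Hmga1 (0.11). Lin28b read 7.4 to 17.2 and was too dim to be tested. Of Sall4's relatives, Sall1 alone was bright enough to test, at 56.2 and 10.9 in spheres against 61.9 to 91.4 (limma adjusted p = 0.279). Without line 21 spheres the log2 difference of Sall1 was -2.72. The 1 sphere array left, that of line 42, read under the filter level, so the size is uncertain. Of 13 genes of the ubiquitin ligase core and other F-box proteins, limma called 0, with 1 at an unadjusted p under 0.05 and a median of 0.19. Btrc (-1.24) and Rbx1 (0.57) differed most and Kdm2b (-0.095) and Skp1 (-0.011), the adaptor that F-box proteins bind, least. Btrc read 15.2 and 5.85 in spheres, under the filter level, and passed the filter only through treated and reverted cells. The size of its difference is uncertain.

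Spheres had been grown over OP9 stroma and reverted cells derived over MEFs, so 16 stromal and fibroblast markers were read. Their summed intensity was 1756 and 856 in the spheres of lines 21 and 42. It was 2330.1 and 2752 in untreated and treated ES cells, and 4969.6 in reverted cells. In untreated cells of this feeder-free ES line, Sparc read 879, Acta2 476 and Thy1 464, so the sum does not measure stroma alone. Thy1 read 24.8 and 16.1 in the spheres of lines 21 and 42, under the filter level. Of the 16, 6 to 10 lay under the filter level on each array, among them Postn, Lum and Dcn on all 5, and Fbln2 on 4 arrays with no value on that of untreated ES cells. Of 11 tested, limma called Thy1 and Acta2 lower in spheres and 0 higher, and neither passed when untreated ES cells, treated ES cells or line 42 spheres were left out. Tagln (-3.01, limma adjusted p = 0.152) had the next largest difference. The markers did not all go down. Against treated ES cells, 4 were at least 2-fold lower and 3 higher in line 21 spheres (13.8% and 12.7% of all genes). In line 42 spheres 4 were lower and 1 higher (11.2% and 9.73% of all genes). S100a4, named after its values were seen, read 280 in line 21 spheres and 361 in reverted cells against 8.69 to 19.6 elsewhere, and the part of other cells in the members' values was not tested. In such bulk samples fewer cells of a type and less RNA per cell cannot be told apart. Of 12 housekeeping controls, limma called 0, with 2 at an unadjusted p under 0.05 and a median of -0.083 (0.018 after quantile normalization).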

How the data were processed

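Total RNA of 5 cultures was amplified to amino allyl antisense RNA, coupled to Cy5 and hybridised to 1-colour Toray arrays, per the labels' protocols. The authors deposited linear probe intensity values, 22871 per array. How those were scanned, corrected for background and normalized, and why cells are empty, is not given in the sources used. The common median of 50 was read from the values.

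Probe names came from the platform annotation (16264 probes with 1 symbol, 6607 with none, 0 with several). Of 16087 symbols, 12239 were current in RefSeq's GRCm38.p6 gene table, 3787 were updated through a single synonym and 61 kept. Where a gene had several probes (221 of 16032 genes), the brightest was used. Intensities became log2(intensity + 1), centred per array on the 18884 probes listed everywhere (shifts of -0.059 to 0.077). A gene was tested if it had a value on every array compared and reached the 40th percentile of 1 of them.

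Spheres (2 arrays) were compared with the 3 ES-type arrays by limma 3.58.1 in R 4.3.3 (lmFit, eBayes, Benjamini-Hochberg, threshold 0.05), checked on simulated data. Single arrays were compared by log2 difference, with 2-fold as threshold. No label says that cultures were repeated. The p-values rest on a spread between single arrays that mixes line, condition, culture and technical differences, and the number of arrays limits precision. The members and gene lists were chosen with earlier results of these data known. From each list, called genes and at most 4 others, those with the largest and smallest differences, are named, and for members ranging over 1 log2 unit the 3 nearest profiles. Pou5f1 and Sox2 were not analysed here. Alternatives were other scaling, pseudocount, filters and probe choice, a fit of 4 group means, and leaving out each array.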

Additional observations from a re-analysis of the deposited data

Results flagged for a closer look

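The sphere lines lay on opposite sides of line 21 ES cells treated with 4OHT for 2 members, and this was not tested because each line has 1 array. For Lin28a the differences were -1.10 in line 21 and 0.15 in line 42, a gap of 1.25 log2 units. For Utf1 they were -0.77 and 0.65, a gap of 1.42. Both lines were set against line 21 ES cells.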

How the results depend on the processing

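No member passed limma's threshold under any alternative run, and Fbxo15 stayed negative throughout, from -1.15 to -2.68 (log2; limma adjusted p from 0.0985 to 0.393). Small differences changed sign when 1 array was left out: Nanog was at -0.11 without treated ES cells and at -0.21 without line 21 spheres, Sall4 at 0.011 without line 42 spheres, and Lin28a and Utf1 at 0.010 and 0.35 without line 21 spheres. Without 1 array, Nanog ranged from -0.21 to 0.30, Sall4 from -0.29 to 0.011, Lin28a from -1.24 to 0.010 and Utf1 from -1.07 to 0.35. With line 42 in place of line 21 spheres, Lin28a was at 0.15 against treated ES cells. The number of genes called ranged from 0 to 112 higher and from 0 to 172 lower over the fits without 1 array, and was 0 and 0 with 4 group means. The 0 in each range came without untreated ES cells. Nanog minus Sall4, Lin28a, Utf1 and Fbxo15 shifted by 0.06 to 0.29, -0.22 to 1.54, -0.57 to 1.37 and 0.93 to 2.99 without 1 array, alternatives chosen after seeing the data. Counts of 2-fold genes moved by over 1.5 times for 4OHT, lower (143 with pseudocount 16 and with the 60th percentile filter, 393 without a filter), reverted cells below spheres (505 with the 60th percentile filter), reverted cells above untreated ES cells (339 with pseudocount 16, 334 with the 60th percentile filter) and line 42 below line 21 spheres (508 with that filter). Sall4 was not tested with the 60th percentile filter. The filters change how many genes are tested; other causes were not tested. No paired analysis by line was possible, because line 42 was represented by spheres alone. All other arrays were of line 21, and the reverted cells came from line 21 spheres. The limma fit treats these related arrays as independent.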
